A study of Mus musculus with 11 samples.

Results

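The protein-coding genes for cytochrome c oxidase, ATP synthase and cytochrome b of the mouse mitochondrial genome (chrM) were followed in hearts of the CD mouse model of Williams-Beuren syndrome (WBS). There are 6: mt-Co1, mt-Co2, mt-Co3, mt-Atp6, mt-Atp8 and mt-Cytb. The 6 genes were taken from the deposited count table by their Ensembl identifiers, matched to symbols in GENCODE mouse release M21, and are 6 of 22608 genes in that table. All 6 passed the filter on low counts that left 11319 genes for testing. Hearts came from 11 mice in 4 groups: WT VEH (2 vehicle-treated wild-type mice), WT JZL184 (3 wild-type mice on JZL184), CD VEH (3 vehicle-treated CD mice) and CD JZL184 (3 CD mice on JZL184). CD mice lack 1 of their 2 copies of the WBS interval of chromosome 5 in all their cells, and the WT mice were littermates. Both were male, on a C57BL/6J background, and between 8 and 16 weeks old. JZL184, which blocks the enzyme that degrades the endocannabinoid 2-AG, was injected intraperitoneally at 8 mg/kg each day for 10 days. The sample titles name the controls as vehicle-treated whereas their treatment field calls them untreated. The tissue was labelled as ventricle of the heart.

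Mitochondria carry their own circular genome, which is transcribed into long RNAs that cover many genes and are cut at the transfer RNAs lying between them. Most of the mRNAs are thus made from shared transcripts, and their steady levels differ largely with how long each lasts. The mt-Co1, mt-Co2 and mt-Co3 proteins form the catalytic core of complex IV, which passes electrons to oxygen. The mt-Atp6 and mt-Atp8 proteins sit in the membrane part of ATP synthase (complex V), and cytochrome b is the core electron carrier of complex III. All other subunits of these 3 complexes are encoded in the nucleus, and heart muscle is among the tissues with the most mitochondria.

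The 6 genes lie on the plus strand of chrM (build GRCm38), have no introns and hold coding sequence almost from end to end. Their positions are chrM:5328-6872 for mt-Co1, chrM:7013-7696 for mt-Co2, chrM:7766-7969 for mt-Atp8, chrM:7927-8607 for mt-Atp6, chrM:8607-9390 for mt-Co3 and chrM:14145-15288 for mt-Cytb. The mt-Atp8 gene, 204 bases long, shares its last 43 bases (21.1% of its length) with the start of mt-Atp6, and both are carried on 1 mRNA. Reads inside these 43 bases fit both genes. The whole mt-Atp8 sequence is shown with the shared bases in capitals.
mt-Atp8 (chrM:7766-7969): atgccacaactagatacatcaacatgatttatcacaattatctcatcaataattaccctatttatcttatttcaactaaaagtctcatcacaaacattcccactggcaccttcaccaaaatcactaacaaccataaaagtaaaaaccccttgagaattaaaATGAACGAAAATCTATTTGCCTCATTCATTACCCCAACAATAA
The end of mt-Atp6 and the start of mt-Co3 share 1 base, and the capitals mark the stop codon of the first and the start codon of the second.
mt-Atp6 to mt-Co3 (chrM:8593-8621): catgataatacaTAATGacccaccaaact
The ends of the other genes are shown because they differ. In mt-Co1 and mt-Co2 the capitals mark an encoded stop codon, whereas mt-Co3 and mt-Cytb end in a single T past the last whole codon, to which the poly(A) tail adds the rest of a stop codon.
mt-Co1 (chrM:6843-6872): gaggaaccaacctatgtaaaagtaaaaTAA
mt-Co2 (chrM:7667-7696): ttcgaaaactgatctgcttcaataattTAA
mt-Co3 (chrM:9361-9390): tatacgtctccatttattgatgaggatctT
mt-Cytb (chrM:15259-15288): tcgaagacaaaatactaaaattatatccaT
Near copies in the nuclear genome were found among annotated transcripts for 4 of the 6 genes. A blastn search of the GENCODE M21 transcripts, at 95% identity or more over at least 100 bases, found 6 pseudogene copies: Gm13340 and Gm29216 for mt-Co1, Gm13341 and Gm28661 for mt-Co2, Gm10925 for mt-Atp6 and Gm28437 for mt-Co3. Copies of mt-Atp8 and mt-Cytb were not found at these limits. The genome outside annotated transcripts was not searched, so copies there, also of these 2 genes, would be missed. The levels of the copies were not analysed here, so counts of at least the 4 genes with copies found may include reads that fit a copy.

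Each library held between 69660232 and 92251443 estimated counts. The interval genes served as a check of the labels: all 14 tested genes between Gtf2i and Fkbp6 were lower in CD VEH than in WT VEH (edgeR, adjusted p under 0.05), with a median log2 fold-change of -1.01. Their summed level was 421 to 477 CPM (counts scaled by TMM to a common library size) in the WT mice and 220 to 247 CPM in the CD mice. Ventricular cardiomyocyte markers summed to 31046 to 41308 CPM, 8 of 8 were tested, and 4 adipocyte markers summed to at most 1.26 CPM, and the brown adipocyte markers Ucp1 and Cidea to 15.4 to 18.4 CPM. Nothing in the sources used here states whether RNA was selected by its poly(A) tail or depleted of ribosomal RNA, a choice that sets the level of chrM mRNAs in a library.

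Per base of gene, mt-Co1 was the most abundant of the 6 mRNAs and mt-Atp8 the least. Mean levels over the 11 mice, in CPM per kilobase of gene, were 98901 for mt-Co1, 64454 for mt-Co3, 61547 for mt-Co2, 40065 for mt-Atp6, 32949 for mt-Cytb and 11621 for mt-Atp8. Within a mouse, mt-Co3 lay above mt-Co2 in 9 of 11 mice, by -1258 to 8188 CPM per kilobase, so the order of these neighbours was not the same in every mouse (ranges 45254 to 82781 and 45838 to 74758). Although the ranges of mt-Atp6 (29101 to 46825) and mt-Cytb (26290 to 38341) over all mice overlapped, mt-Atp6 was the higher in 11 of 11 mice, by 2811 to 10496 CPM per kilobase. The level of mt-Co1 (83088 to 115391) lay above the other 5 in every mouse, since its lowest value exceeded the highest of mt-Co3. The level of mt-Atp8 (6396 to 16352) lay below the other 5 in every mouse. These levels divide by the annotated gene length, with no correction for the length of the sequenced fragments, which lowers the value of a gene as short as mt-Atp8.

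Between mice of a group, mt-Co1 varied least and mt-Atp8 most. The pooled coefficient of variation of CPM within groups was 4.39% for mt-Co1, 5.33% for mt-Cytb, 6.93% for mt-Atp6, 7.10% for mt-Co2, 8.28% for mt-Co3 and 23.6% for mt-Atp8. Counting error was far smaller, since the widest exact 95% binomial interval of any share was 0.0169 percentage points. Although mt-Atp8 and mt-Atp6 share an mRNA, the ratio of their counts per kilobase was 0.410 and 0.324 in WT VEH, 0.282, 0.296 and 0.214 in WT JZL184, 0.273, 0.364 and 0.222 in CD VEH and 0.300, 0.286 and 0.220 in CD JZL184. All of these ratios lay below 1, and the groups overlapped, apart from WT VEH, which lay above WT JZL184 and CD JZL184. The ratio of mt-Co3 to mt-Co1 was 0.616 and 0.603 in WT VEH, 0.641, 0.768 and 0.683 in WT JZL184, 0.743, 0.665 and 0.674 in CD VEH, and 0.598, 0.582 and 0.545 in CD JZL184. Every WT JZL184 and CD VEH mouse thus had a higher mt-Co3 to mt-Co1 ratio than every mouse of the other groups. The ratio of mt-Cytb to mt-Co1 ranged from 0.316 to 0.345 over all mice, and every CD JZL184 mouse lay below every CD VEH and WT JZL184 mouse.

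**Figure D1:**
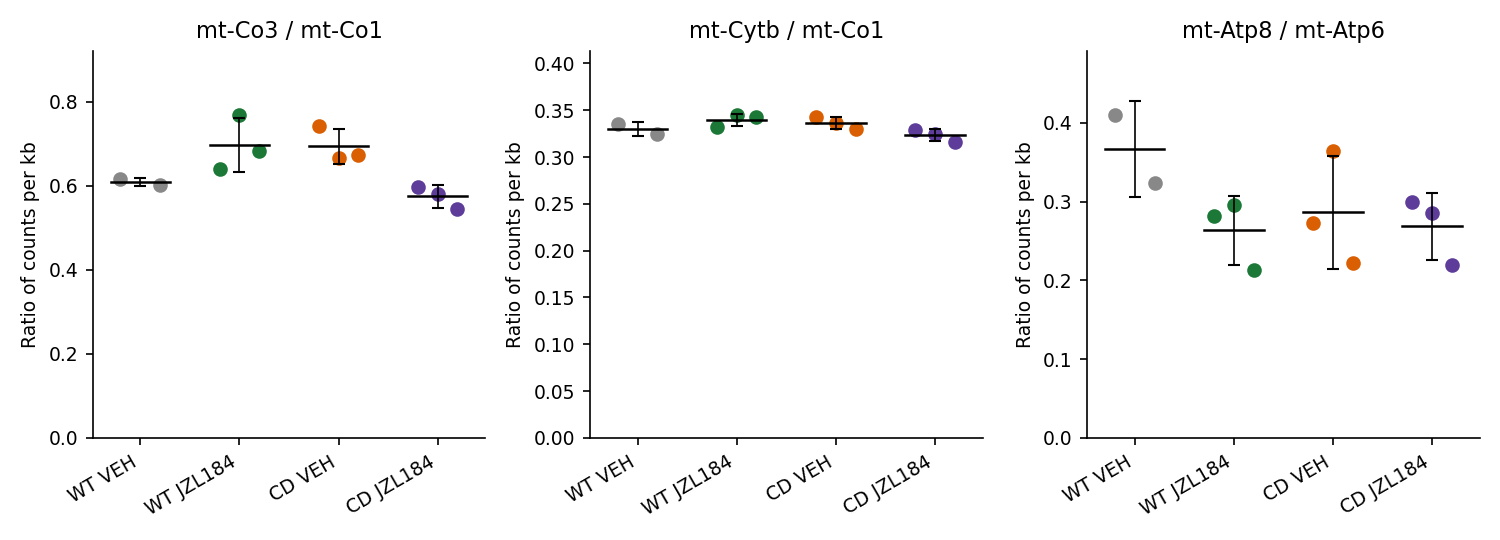
Ratios of counts per kilobase for mt-Co3 to mt-Co1, mt-Cytb to mt-Co1 and mt-Atp8 to mt-Atp6, 1 point per mouse, with the group mean (line) and SD (bar). The mt-Co3 to mt-Co1 ratio lies at 0.641 or above in WT JZL184 and CD VEH and at 0.616 or below in WT VEH and CD JZL184, and mt-Cytb to mt-Co1 spans 0.316 to 0.345, with CD JZL184 below CD VEH and WT JZL184.

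The 6 mRNAs together took between 26.8% and 35.1% of all counts in each heart. In WT VEH they made up 29.7% and 28.6% of the counts, and in WT JZL184 33.5%, 35.1% and 33.4%. In CD VEH they made up 33.6%, 32.3% and 32.5%, and in CD JZL184 29.4%, 27.8% and 26.8%. WT JZL184 and CD VEH were thus higher than WT VEH and CD JZL184, with no overlap between these pairs of groups, while WT VEH and CD JZL184 overlapped. Group means were 29.1% ± 0.811 (SD, n = 2) for WT VEH, 34.0% ± 0.946 (SD, n = 3) for WT JZL184, 32.8% ± 0.681 (SD, n = 3) for CD VEH, 28.0% ± 1.30 (SD, n = 3) for CD JZL184. Averaged over treatments, CD mice had a share 1.17 percentage points below that of WT mice (two-sided exact permutation test within treatments, p = 0.51). Averaged over genotypes, the difference with JZL184 was 0.00092 percentage points (exact permutation test within genotypes, p = 1). The change with JZL184 in CD mice minus that in WT mice was -9.66 percentage points (exact permutation test with JZL184 labels exchanged within genotypes, p = 0.005). That value is the smallest that the 200 arrangements allow, and the null of this test is no JZL184 effect in either genotype. In whole tissue, fewer cells of a type and less RNA per cell cannot be told apart.

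**Figure D2:**
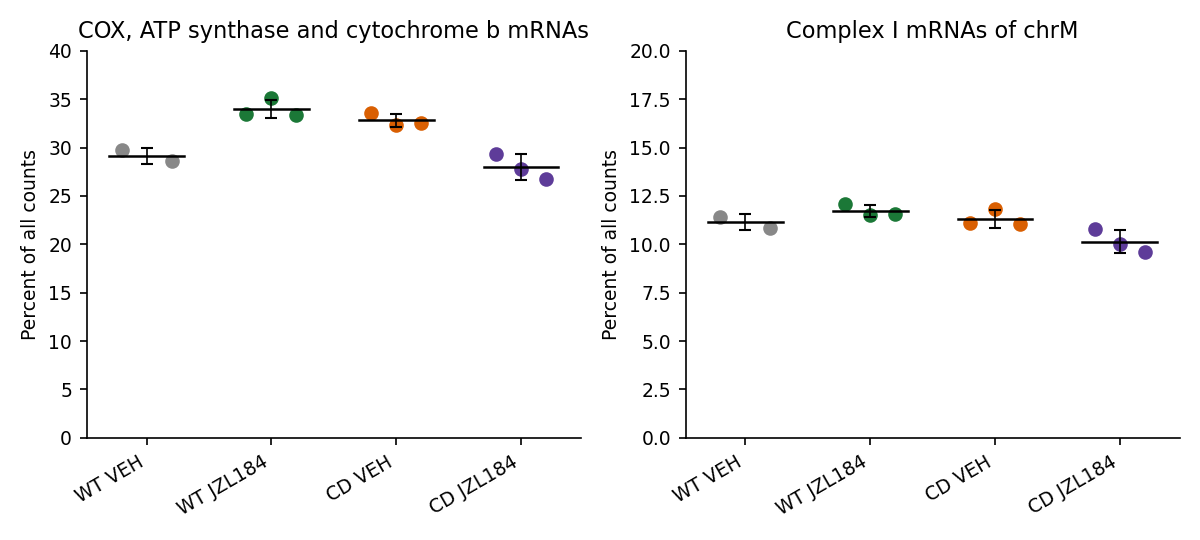
Percent of all counts taken by the COX, ATP synthase and cytochrome b mRNAs (left) and by the complex I mRNAs of chrM (right), 1 point per mouse, with the group mean (line) and SD (bar). On the left, WT JZL184 and CD VEH lie at 32.3% to 35.1% and WT VEH and CD JZL184 at 26.8% to 29.7%.

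Among the complex IV genes, mt-Co1 encodes the subunit that holds the oxygen-binding site. It took 14.6% and 14.3% of all counts in WT VEH, 16.4%, 16.2% and 15.995% in WT JZL184, 15.7%, 15.6% and 15.8% in CD VEH, and 14.7%, 14.2% and 14.0% in CD JZL184. The mRNA of mt-Co2, the subunit that receives electrons from cytochrome c, took 4.07% and 3.80% in WT VEH, 4.60%, 4.99% and 4.61% in WT JZL184, 4.63%, 4.27% and 4.31% in CD VEH, and 3.86%, 3.53% and 3.41% in CD JZL184. The third core subunit, mt-Co3, took 4.56% and 4.38% in WT VEH, 5.33%, 6.33% and 5.54% in WT JZL184, 5.93%, 5.27% and 5.41% in CD VEH, and 4.46%, 4.19% and 3.86% in CD JZL184. For all 3 genes the WT JZL184 and CD VEH mice lay above the WT VEH and CD JZL184 mice without overlap. In the pairwise comparisons within this pattern, 47.9% to 64.0% of all genes did not overlap in CPM, in either direction. The share of all genes with the whole pattern was not counted.

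For complex V, mt-Atp6, part of the proton channel, took 2.55% and 2.42% of all counts in WT VEH, 2.89%, 3.09% and 2.98% in WT JZL184, 3.06%, 2.98% and 2.93% in CD VEH, and 2.53%, 2.27% and 2.15% in CD JZL184. Here too the WT JZL184 and CD VEH mice lay above the others without overlap. The small membrane subunit mt-Atp8 was different, with 0.313% and 0.234% in WT VEH, 0.244%, 0.274% and 0.191% in WT JZL184, 0.250%, 0.325% and 0.195% in CD VEH, and 0.227%, 0.194% and 0.142% in CD JZL184. Its groups overlapped, apart from CD JZL184, which lay below WT VEH. For complex III, mt-Cytb took 3.62% and 3.44% in WT VEH, 4.03%, 4.15% and 4.05% in WT JZL184, 3.99%, 3.89% and 3.86% in CD VEH, and 3.58%, 3.42% and 3.27% in CD JZL184. The pattern of mt-Cytb was again higher in WT JZL184 and CD VEH, without overlap. Of all genes, 47.9% to 64.0% likewise did not overlap in CPM, in either direction, in the pairwise comparisons within this pattern.

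**Figure D3:**
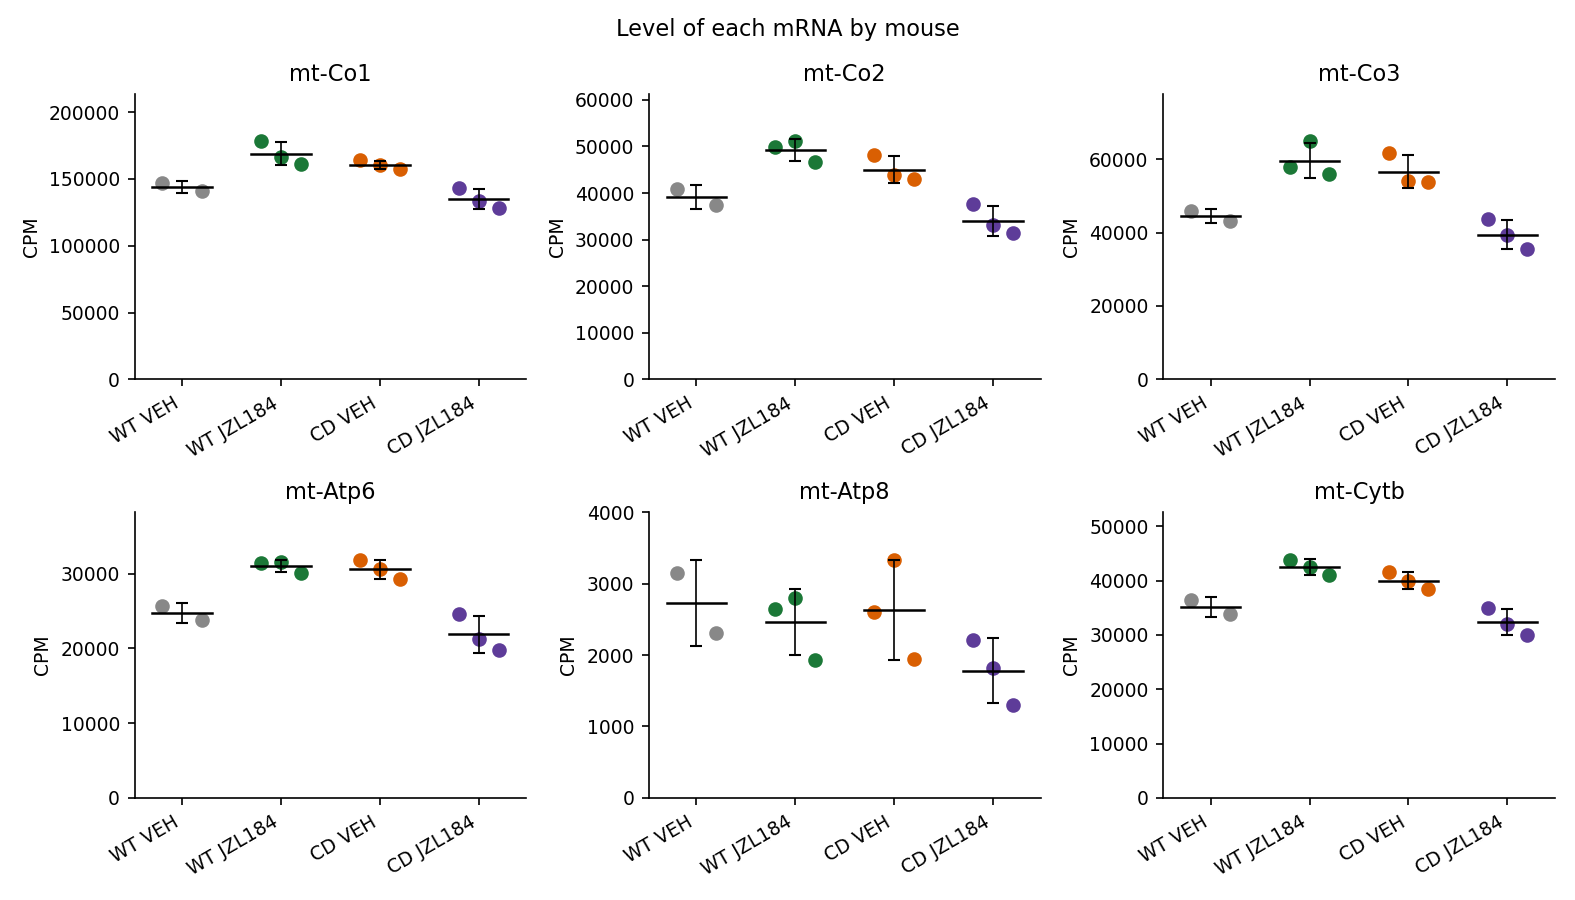
Level of each of the 6 mRNAs in CPM (TMM-scaled), 1 point per mouse, with the group mean (line) and SD (bar) and axes from 0. In all genes but mt-Atp8, every WT JZL184 and CD VEH mouse lies above every WT VEH and CD JZL184 mouse. In the pairwise comparisons within this pattern, 47.9% to 64.0% of all tested genes do not overlap, in either direction.

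CD VEH was compared with WT VEH to ask how the deletion alone relates to these mRNAs. Of the 6 mRNAs, 2 were higher in CD VEH, namely mt-Co3 (log2 fold-change 0.35, SE 0.11, edgeR quasi-likelihood test, adjusted p = 0.0353) and mt-Atp6 (0.31, SE 0.10, adjusted p = 0.0384 in edgeR), and 0 were lower. Of all genes tested, 30.4% were called in this comparison, 15.0% as higher. The other 4 did not pass, with 0.20 for mt-Co2 (edgeR adjusted p = 0.147), 0.18 for mt-Cytb (adjusted p = 0.134), 0.16 for mt-Co1 (adjusted p = 0.169) and -0.05 for mt-Atp8 (SE 0.25, adjusted p = 0.883). The median over the 6 was 0.19, against 0.01 over all genes. Between these groups 5 of the 6 mRNAs did not overlap in CPM, all higher in CD VEH, as did 64.0% of all genes in either direction. The 2 calls did not survive several other analyses. With an offset for transcript length, 0 of the 6 were called. On the log2 scale mt-Co3 was then at 0.06, mt-Atp6 at -0.005, mt-Cytb at -0.037, mt-Co2 at -0.111 and mt-Atp8 at -0.54, and mt-Co1 was also below 0. The count was also 0 without WT VEH mouse C, WT VEH mouse D, CD VEH mouse A, CD VEH mouse E or CD JZL184 mouse C, and 1 (mt-Co3) without CD VEH mouse C or WT JZL184 mouse D. It was 0 as well with no filter on low counts, with at least 10 counts in every mouse, and when scaled to the 13 chrM mRNAs, under which mt-Co1 changed sign (-0.01). The 6 made up 72.2% to 75.3% of the counts of these 13. That scaling thus removes most of any change they share, whatever its source, and shows only changes relative to each other.

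The changes with JZL184 in CD mice were opposite in sign to those of CD VEH against WT VEH, apart from mt-Atp8, below 0 in both. Both comparisons share the CD VEH mice, which enter them with opposite signs. Of the 6 mRNAs, 5 were lower in CD JZL184 than in CD VEH (edgeR quasi-likelihood test, adjusted p under 0.05), against 33.9% of all genes called and 17.0% called as lower. The largest of these was mt-Co3, at -0.52 (SE 0.10, edgeR adjusted p = 0.0039), followed by mt-Atp6 at -0.48 (SE 0.09, adjusted p = 0.0037) and mt-Co2 at -0.40 (SE 0.09, adjusted p = 0.0073). The falls of mt-Cytb (-0.30, SE 0.08, adjusted p = 0.0145) and mt-Co1 (-0.25, SE 0.07, adjusted p = 0.0254) were smaller. The value for mt-Atp8 was -0.56 with an SE of 0.23, which did not pass (edgeR adjusted p = 0.0754). The same 5 mRNAs did not overlap in CPM between the groups, a state shared by 54.6% of all genes. The median over the 6 was -0.44, against 0.00 over all genes. With the offset for transcript length the count called was 0, with values between -0.20 (mt-Co3) and 0.06 (mt-Atp8). The count was 3 without mouse A of CD VEH and also 3 without mouse E of CD JZL184, 4 without mouse C of either group, and 3 with no filter on low counts or with at least 10 counts in every mouse. Scaled to the 13 chrM mRNAs rather than to all genes, mt-Co1 and mt-Cytb changed sign (0.07 and 0.02) and 2 remained called, mt-Co3 (-0.20) and mt-Atp6 (-0.16).

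In WT mice, JZL184 went with higher levels. Compared with WT VEH, 4 of the 6 mRNAs were higher in WT JZL184 (edgeR quasi-likelihood test, adjusted p under 0.05), against 29.4% of all genes called and 15.4% called as higher. These were mt-Co3 (0.42, SE 0.11, edgeR adjusted p = 0.0166), mt-Co2 (0.33, SE 0.10, adjusted p = 0.0308), mt-Atp6 (0.33, SE 0.10, adjusted p = 0.0299) and mt-Cytb (0.27, SE 0.09, adjusted p = 0.0403). The value of mt-Co1 was 0.23 (SE 0.08, edgeR adjusted p = 0.0586), and that of mt-Atp8 was -0.15 (SE 0.25, adjusted p = 0.674). Again 5 of the 6 did not overlap in CPM between the groups, all higher in WT JZL184, as against 54.7% of all genes in either direction. The median over the 6 was 0.30, against 0.00 over all genes. The count called fell to 0 without WT JZL184 mouse B, without either WT VEH mouse, and with the offset for transcript length, under which mt-Co3 was at 0.16. It was 3 without CD JZL184 mouse C, CD VEH mouse A, CD VEH mouse E or WT JZL184 mouse D, and 1 when the model held these groups alone, with no filter on low counts, or with at least 10 counts in every mouse. Scaled to the 13 chrM mRNAs it was 0, and mt-Co1 changed sign (-0.02). With the offset for transcript length mt-Atp8 was at -0.64, further below 0 than the value above. This comparison and that of CD VEH rest on the same 2 WT VEH mice.

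Between the JZL184-treated groups, 5 of the 6 mRNAs were lower in CD than in WT mice (edgeR quasi-likelihood test), against 38.3% of all genes called and 20.1% called as lower. The values were -0.60 for mt-Co3 (SE 0.10, edgeR adjusted p = 0.0015), -0.53 for mt-Co2 (adjusted p = 0.0016), -0.50 for mt-Atp6 (adjusted p = 0.0019), -0.39 for mt-Cytb (adjusted p = 0.0036) and -0.32 for mt-Co1 (adjusted p = 0.0068). The value for mt-Atp8 was -0.47 (SE 0.23, edgeR adjusted p = 0.124). The same 5 did not overlap in CPM, as did 47.9% of all genes, and they were called in each of the 11 fits that left out a mouse. With the offset for transcript length, mt-Co3 alone was called (-0.30, edgeR adjusted p = 0.0272). Scaled to the 13 chrM mRNAs, mt-Co3 (-0.20) and mt-Co2 (-0.13) were called, and mt-Co1 (0.08) and mt-Cytb (0.01) changed sign.

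CD JZL184 was also compared with WT VEH, and the log2 fold-changes of the 6 were all below 0. By edgeR, 0 of the 6 mRNAs were called, as against 0.186% of all genes, and 1 (mt-Atp8) had an unadjusted p under 0.05. DESeq2 also called 0. The log2 fold-changes were -0.09 (95% interval -0.27 to 0.09) for mt-Co1, -0.20 (-0.42 to 0.02) for mt-Co2, -0.17 (-0.41 to 0.06) for mt-Co3, -0.17 (-0.39 to 0.04) for mt-Atp6, -0.12 (-0.31 to 0.07) for mt-Cytb and -0.62 (-1.17 to -0.07) for mt-Atp8. In CPM the groups overlapped for all but mt-Atp8, as against 36.6% of all genes without overlap. These intervals still include falls of 0.27 or more for every gene.

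The JZL184 effect in CD mice minus that in WT mice, the interaction term, was below 0 and passed for 5 of the 6 mRNAs (edgeR quasi-likelihood test), against 51.5% of all genes called and 26.2% called as lower. It was -0.94 for mt-Co3 (SE 0.15, edgeR adjusted p = 0.00047), -0.81 for mt-Atp6 (adjusted p = 0.00063), -0.73 for mt-Co2 (adjusted p = 0.0012), -0.57 for mt-Cytb (adjusted p = 0.0023) and -0.48 for mt-Co1 (adjusted p = 0.0044). For mt-Atp8 it was -0.41 (SE 0.34, edgeR adjusted p = 0.331). Under the offset for transcript length 0 passed, and mt-Co3 came nearest (-0.36, edgeR adjusted p = 0.0558). Scaled to the 13 chrM mRNAs, mt-Co3 (-0.37) and mt-Atp6 (-0.24) passed and mt-Co1 (0.09) and mt-Atp8 (0.15) changed sign.

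**Figure D4:**
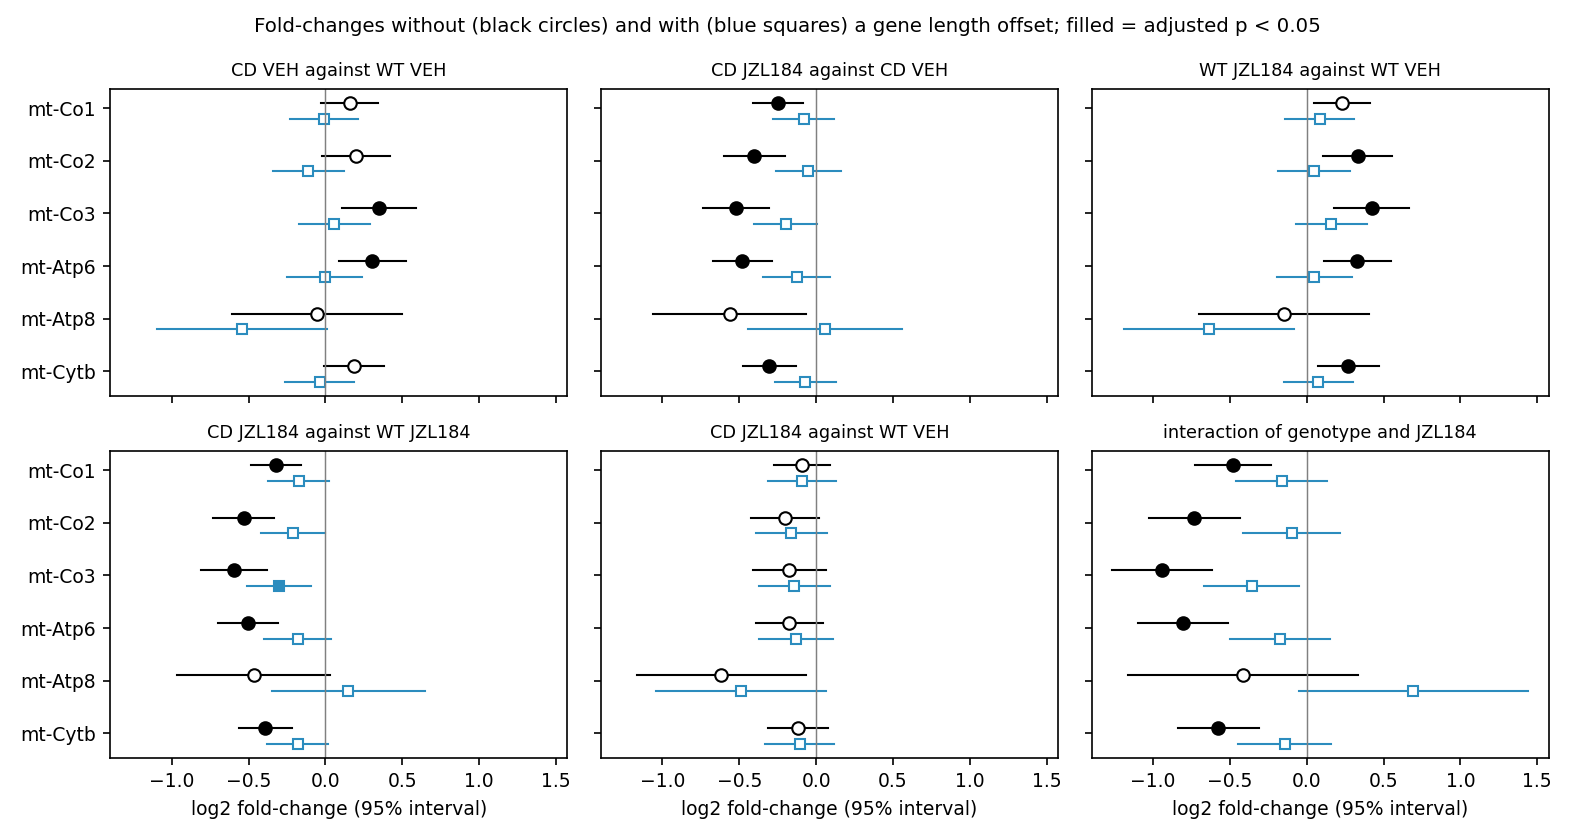
Log2 fold-changes with 95% intervals of the 6 mRNAs in 5 comparisons and the interaction, from edgeR without (black circles) and with (blue squares) an offset for transcript length, filled where the adjusted p was under 0.05. Without the offset 2, 5, 4, 5, 0 and 5 mRNAs are called, in panel order, and with it 0, 0, 0, 1, 0 and 0. Scaled to the 13 chrM mRNAs, mt-Co1 changes sign in all 6 panels and mt-Cytb in the 3 that compare CD JZL184 with another group, and mt-Atp8 in the interaction.

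Transcript length moved with these results across the whole table. The longest of the 6 genes, mt-Co1, has 1545 bases. Among tested nuclear genes whose longest transcript was no longer than that (1200 genes), log2 fold-changes had medians of 0.22 for CD VEH against WT VEH, -0.22 for CD JZL184 against CD VEH and 0.17 for WT JZL184 against WT VEH. Among the 10027 longer genes the medians were -0.02, 0.02 and -0.03. Of the short genes, 39.5% were called higher and 1.83% lower in CD VEH, whereas 12.1% and 17.1% of the longer genes were. In CD JZL184 against CD VEH, 46.7% of the short genes were called lower, as were 13.4% of the longer ones. The medians of the 6 mRNAs given above had the same signs as those of the short nuclear genes, and what sets the length trend was not tested.

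Relative to each other, the proportions of mt-Co1, mt-Co3 and mt-Atp6 separated WT JZL184 and CD VEH from the other groups, and those of mt-Co2, mt-Cytb and mt-Atp8 did not. Of the counts of the 6, mt-Co1 took a mean of 49.6% in WT VEH, 47.7% in WT JZL184, 47.9% in CD VEH and 51.1% in CD JZL184. The share of mt-Co3 ran the other way, with means of 15.3%, 16.9%, 16.9% and 14.9% in the same order. The 6 shares have a fixed sum, so a rise of mt-Co1 must go with falls among the others, and their tests are not independent. The shares of mt-Co2 (13.5%, 13.9%, 13.4% and 12.9%), mt-Atp6 (8.52%, 8.79%, 9.12% and 8.27%), mt-Cytb (12.1%, 12.01%, 11.9% and 12.2%) and mt-Atp8 (0.937%, 0.693%, 0.784% and 0.667%) moved by fewer percentage points. In 12 exact permutation tests of genotype and of JZL184, 0 passed after adjustment, and the smallest raw p was 0.045 for mt-Co2 between genotypes (0.57 percentage points lower in CD). The JZL184 effect in CD minus that in WT was 5.05 percentage points for mt-Co1, -3.49 for mt-Co3, -1.12 for mt-Atp6 and -0.997 for mt-Co2 (exact permutation test with labels exchanged within genotypes, p = 0.01 and adjusted p = 0.015 for each). It was 0.423 for mt-Cytb (exact permutation p = 0.025, adjusted p = 0.03) and 0.127 for mt-Atp8 (exact permutation p = 0.565). As shares of all 13 chrM mRNAs, 3 of these tests passed (mt-Co2, mt-Co3 and mt-Atp6).

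The other 7 protein-coding genes of chrM encode complex I subunits and are the closest comparison. Their summed share was 10.8% to 11.4% of counts in WT VEH, 11.5% to 12.1% in WT JZL184, 11.02% to 11.8% in CD VEH and 9.61% to 10.8% in CD JZL184. CD VEH thus overlapped WT VEH, unlike in the summed share of the 6 genes. Of the 7, CD VEH had 0 called against WT VEH, CD JZL184 had 4 lower than CD VEH, and WT JZL184 had 1 higher than WT VEH, where 30.4%, 33.9% and 29.4% of all genes were called. All 7 were lower in CD JZL184 than in WT JZL184, where 38.3% of all genes were called, and the 7 fell to 3 without CD JZL184 mouse C or E and to 4 without WT JZL184 mouse A. With the length offset the counts in these 4 comparisons were 0, 0, 0 and 1. The 4 fell to 1 without CD JZL184 mouse C or E or CD VEH mouse A and to 2 without CD VEH mouse C or E, WT JZL184 mouse D or either WT VEH mouse, the 1 fell to 0 without WT JZL184 mouse B or either WT VEH mouse, and the 0 rose to 1 without CD JZL184 mouse E or WT JZL184 mouse A or B. Their median log2 fold-changes in the first 3 of these comparisons were 0.04, -0.24 and 0.11, against 0.19, -0.44 and 0.30 for the 6. Of the 7, mt-Nd3 moved more than any of the 6 in each, at 0.38 (edgeR adjusted p = 0.051), -0.73 (adjusted p = 0.0025) and 0.49 (adjusted p = 0.0218). In the interaction 4 of the 7 were called lower, against 51.5% of all genes called, with mt-Nd3 at -1.22 (edgeR adjusted p = 0.00038). That count was 2 without CD JZL184 mouse C or E, and with the length offset 1 was called, as higher. The 6 genes made up between 72.2% and 75.3% of the chrM mRNA counts in every mouse. The difference between both sets of genes was not tested.

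Across mice, 5 of the 6 mRNAs moved together and mt-Atp8 less so. Pearson's r of log2 CPM between pairs of the 5 was 0.949 (mt-Co3 and mt-Co1) to 0.991 (mt-Cytb and mt-Co1) over the 11 mice, and 0.605 to 0.657 for pairs with mt-Atp8. As deviations from the group means, the pairs of the 5 ranged from 0.630 to 0.965 and the pairs with mt-Atp8 from 0.651 to 0.805. These values share library, depth and base composition and are given as a description. The tested nuclear genes whose log2 CPM was most like the mean of the 6 were Pdgfd, a growth factor (r = 0.970 over 11 mice), Terf1, a telomere-binding protein (0.968), Gm15446 (0.952), Dram2 (0.9496) and Rab11a (0.946). The most opposite were Cdk16 (-0.949), Pi4k2a (-0.945) and Mapre2 (-0.944). The mean level of Pdgfd was 12.1 CPM in WT VEH, 16.1 in WT JZL184, 14.5 in CD VEH and 10.1 in CD JZL184.

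Where nuclear subunits of complexes IV and V were called, they had the same signs as the medians of the 6 mRNAs for CD VEH against WT VEH, CD JZL184 against CD VEH and WT JZL184 against WT VEH. Over all tested genes 30.4%, 33.9% and 29.4% were called in these comparisons. In CD VEH 15.0% of all tested genes were called higher, in CD JZL184 against CD VEH 17.0% lower, and in WT JZL184 15.4% higher. Of 16 tested nuclear genes of complex IV, CD VEH had 11 higher and 0 lower than WT VEH, CD JZL184 had 0 higher and 14 lower than CD VEH, and WT JZL184 had 9 higher and 0 lower than WT VEH (edgeR, adjusted p under 0.05). Their median log2 fold-changes were 0.37, -0.42 and 0.27, against 0.01, 0.00 and 0.00 over all genes. The hypoxia-responsive isoform Cox4i2 rose most, with means of 4.13 CPM in WT VEH and 7.30 in CD VEH (0.82 on the log2 scale, SE 0.16, edgeR adjusted p = 0.0050). In CD JZL184 against CD VEH, Cox7b fell most (-0.54, edgeR adjusted p = 0.0023). Without WT VEH mouse C the count in CD VEH was 1 and that in WT JZL184 was 0, and Cox4i2 was not called in CD VEH. Without WT VEH mouse D the counts were 4 and 1. With the offset for transcript length the calls went both ways, with 2 higher and 1 lower in CD VEH, 1 higher and 3 lower in CD JZL184 against CD VEH, and 1 higher and 1 lower in WT JZL184.

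For complex V, CD VEH had 8 of 17 tested nuclear genes higher, CD JZL184 had 10 lower than CD VEH, and WT JZL184 had 4 higher, with 0 in the other direction each time (edgeR). Usmg5, a small ATP synthase subunit, had the largest change among those called in all 3 comparisons, at 0.49 (SE 0.09, edgeR adjusted p = 0.0048), -0.65 (SE 0.08, adjusted p = 0.0020) and 0.39 (SE 0.09, adjusted p = 0.0108), and it was called in all 3 with the length offset (0.43, -0.59 and 0.34). The count in CD VEH was 0 without WT VEH mouse C, 2 without WT VEH mouse D, 5 without CD VEH mouse A and 4 without CD VEH mouse E. In WT JZL184 it was 0 without either WT VEH mouse, where Usmg5 was not called, and 7 without WT JZL184 mouse A. In CD VEH Usmg5 was not called without WT VEH mouse C. The 7 called in WT JZL184 without its mouse A were 4 higher and 3 lower. With the offset there were 4 higher and 1 lower in CD VEH, 1 higher and 5 lower in CD JZL184 against CD VEH, and 3 higher and 2 lower in WT JZL184. The 15 tested nuclear genes of complex III and its assembly had calls in both directions, with 5 higher and 2 lower in CD VEH, 2 higher and 7 lower in CD JZL184 against CD VEH, and 1 higher and 2 lower in WT JZL184. These are 7, 9 and 3 of the 15, where 30.4%, 33.9% and 29.4% of all genes were called, so that in WT JZL184 the list lay below the share of all genes. The subunit Uqcr10 rose in CD VEH (0.33, edgeR adjusted p = 0.01095) whereas the assembly factor Ttc19 fell (-0.38, adjusted p = 0.0075). In CD JZL184 against CD VEH the assembly factor Uqcc2 fell (-0.38, edgeR adjusted p = 0.0058) and Ttc19 rose (0.28, adjusted p = 0.0142), and in WT JZL184 the assembly factor Uqcc3 rose (0.26, adjusted p = 0.0166) and Ttc19 fell (-0.48, adjusted p = 0.0037). The number called in CD VEH was 0 without WT VEH mouse C, 2 without WT VEH mouse D, 4 without CD VEH mouse A and 3 without CD VEH mouse E, and neither Uqcr10 (either WT VEH mouse) nor Ttc19 (mouse C) kept its call. It was 5 in CD JZL184 against CD VEH without CD VEH mouse E, where the call of Ttc19 was lost, as it was without CD JZL184 mouse A. In WT JZL184 it was 1 without either WT VEH mouse, where Uqcc3 was not called, 7 without WT JZL184 mouse A and 6 without mouse D. With the offset for transcript length the list had 0 higher and 4 lower in CD VEH, 4 higher and 0 lower in CD JZL184 against CD VEH, and 0 higher and 4 lower in WT JZL184. The calls of Uqcr10 (-0.03), Uqcc2 (-0.02) and Uqcc3 (0.01) were lost with it, whereas Ttc19 was called in all 3 (-0.40, 0.30 and -0.50).

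Of 22 tested complex IV assembly factors, 5 were higher and 3 lower in CD VEH, 3 higher and 10 lower in CD JZL184 against CD VEH, and 3 higher and 5 lower in WT JZL184 (edgeR). These are 36.4%, 59.1% and 36.4% of the 22, against 30.4%, 33.9% and 29.4% of all genes. In CD VEH the number called was 1 without either WT VEH mouse and 3 without CD VEH mouse A or E. In CD JZL184 against CD VEH it was 7 without CD VEH mouse A and 8 without CD JZL184 mouse E. In WT JZL184 it was 1 without either WT VEH mouse, 3 without WT JZL184 mouse B and 5 without CD JZL184 mouse E. Pet100, which helps to assemble the enzyme, rose in CD VEH (0.43, SE 0.10, edgeR adjusted p = 0.0114) and WT JZL184 (0.43, adjusted p = 0.0112) and fell in CD JZL184 against CD VEH (-0.50, adjusted p = 0.0033). Sco1, which delivers copper to the mt-Co2 subunit, fell in CD VEH (-0.39, SE 0.06, edgeR adjusted p = 0.0031) and in WT JZL184 (-0.36, adjusted p = 0.0035), and Coa5 rose in CD JZL184 against CD VEH (0.32, adjusted p = 0.0106). Without either WT VEH mouse Pet100 was not called against WT VEH. With the length offset the list had 1 higher and 8 lower in CD VEH, 6 higher and 3 lower in CD JZL184 against CD VEH, and 0 higher and 6 lower in WT JZL184. Pet100 was then called in CD JZL184 against CD VEH alone (-0.27), and Sco1 and Coa5 kept the calls given above.

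**Figure D5:**
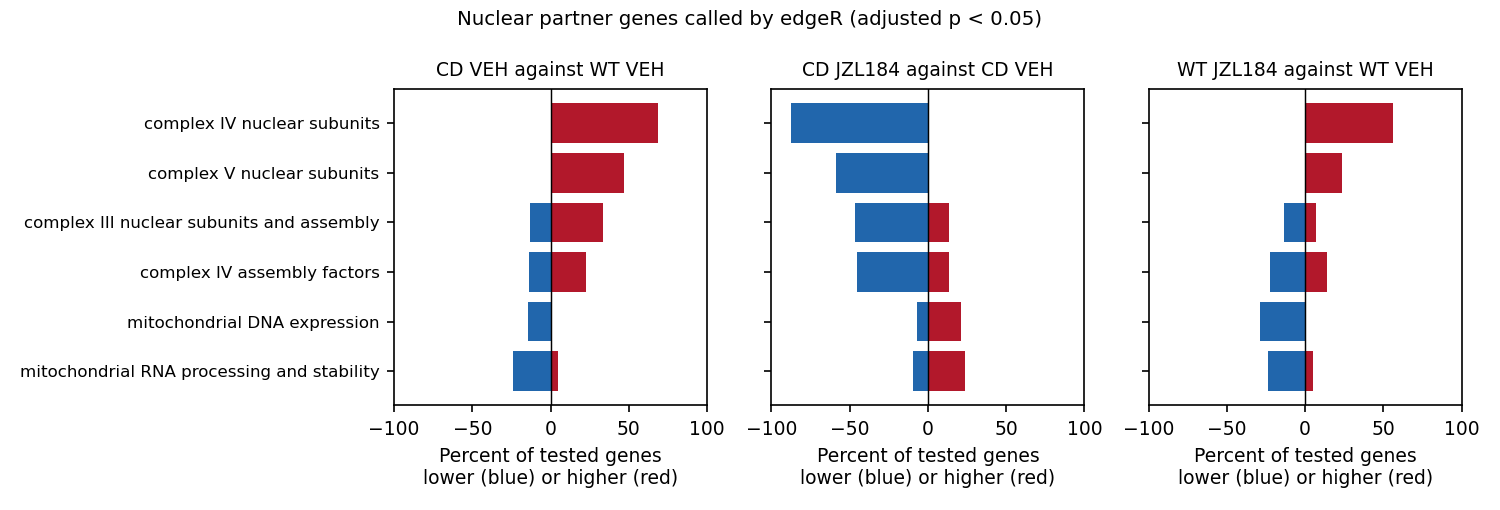
Percent of the tested genes of each nuclear list called higher (red, right of 0) or lower (blue, left of 0) by edgeR without a length offset. Complex IV subunits show 11 of 16 higher, 14 of 16 lower and 9 of 16 higher in the 3 panels, whereas the lists for mitochondrial DNA expression and RNA processing hold calls for 14.3% to 28.6% and 28.6% to 33.3% of their genes, against 29.4% to 33.9% of all genes.

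Other nuclear genes copy, transcribe or process the mitochondrial genome. Of 14 tested genes for mitochondrial DNA expression, 0 were higher and 2 lower in CD VEH, 3 higher and 1 lower in CD JZL184 against CD VEH, and 0 higher and 4 lower in WT JZL184. These are 14.3%, 28.6% and 28.6% of the 14, against 30.4%, 33.9% and 29.4% of all genes. The number called was 1 in CD VEH and in WT JZL184 without either WT VEH mouse, 4 in CD VEH without CD VEH mouse C and 2 in WT JZL184 without WT JZL184 mouse D. Without WT JZL184 mouse A the number in WT JZL184 was 6, all lower. With the length offset 2, 3 and 3 of the 14 were called. Polrmt, the mitochondrial RNA polymerase, averaged 22.4 CPM in WT VEH, 17.8 in WT JZL184, 17.8 in CD VEH and 22.5 in CD JZL184. Its log2 fold-changes were -0.33 in CD VEH (SE 0.08, edgeR adjusted p = 0.0104), 0.34 in CD JZL184 against CD VEH (SE 0.07, adjusted p = 0.0050) and -0.33 in WT JZL184 (SE 0.08, adjusted p = 0.01103), and without either WT VEH mouse it was not called against WT VEH. The helicase Twnk, which unwinds mitochondrial DNA, had -0.42, 0.38 and -0.37 (edgeR adjusted p = 0.0029, 0.0023 and 0.0038) and was called in all 11 fits that left out a mouse in each of these comparisons. The packaging and transcription factor Tfam had -0.01, 0.00 and -0.09 and did not pass (edgeR adjusted p = 0.954, 0.982 and 0.300). Ssbp1, which binds single-stranded mitochondrial DNA, fell in CD JZL184 against CD VEH (-0.32, edgeR adjusted p = 0.0078).

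Of 21 tested genes for mitochondrial RNA processing and stability, 1 was higher and 5 lower in CD VEH, 5 higher and 2 lower in CD JZL184 against CD VEH, and 1 higher and 5 lower in WT JZL184. These are 28.6%, 33.3% and 28.6% of the 21, against 30.4%, 33.9% and 29.4% of all genes. With the length offset they were 33.3%, 42.9% and 33.3%, against 23.9%, 27.2% and 28.0% of all genes, and the difference between list and all genes was not tested. The number called was 2 in CD VEH without WT VEH mouse C, 2 in WT JZL184 without either WT VEH mouse, and, in CD JZL184 against CD VEH, 4 without CD JZL184 mouse E or CD VEH mouse E and 11 without WT JZL184 mouse A. Lrpprc and Slirp, which encode partners in the complex that stabilises mitochondrial mRNAs, moved in opposite directions. Lrpprc averaged 196 CPM in WT VEH, 132 in WT JZL184, 131 in CD VEH and 185 in CD JZL184, whereas Slirp averaged 21.2, 28.9, 28.5 and 19.3 CPM. The log2 fold-changes of Lrpprc were -0.58 in CD VEH (SE 0.14, edgeR adjusted p = 0.0104), 0.50 in CD JZL184 against CD VEH (SE 0.12, adjusted p = 0.0112) and -0.57 in WT JZL184 (SE 0.14, adjusted p = 0.0118). Those of Slirp were 0.43 (SE 0.08, edgeR adjusted p = 0.0055), -0.56 (SE 0.07, adjusted p = 0.0020) and 0.45 (SE 0.08, adjusted p = 0.0045). Both kept their calls and signs with the length offset, with -0.55, 0.47 and -0.55 for Lrpprc and 0.37, -0.50 and 0.39 for Slirp. Slirp was called in all 11 fits that left out a mouse in each comparison, whereas Lrpprc was not called in CD VEH without WT VEH mouse C or in WT JZL184 without either WT VEH mouse. Taco1, which activates translation of mt-Co1, had -0.24, 0.22 and -0.30, with an adjusted p of 0.0958, 0.0821 and 0.0484 in edgeR. The last was under the threshold in 3 of the 11 fits that left out a mouse, and with the length offset all 3 were (-0.42, 0.41 and -0.46).

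Markers of other heart cell types were also called in these comparisons, in which 30.4%, 33.9% and 29.4% of all genes were. Of 5 endothelial markers, CD VEH had 4 higher, CD JZL184 had 4 lower than CD VEH and WT JZL184 had 5 higher, and they summed to 454 to 456 CPM in WT VEH, 701 to 723 in WT JZL184, 569 to 641 in CD VEH and 441 to 517 in CD JZL184. The 5 macrophage markers gave 4 higher, 5 lower and 5 higher, with sums of 99.3 to 101 CPM, 122 to 194, 128 to 156 and 90.9 to 102 in the same group order. Fibroblast markers (5 tested) gave 2 higher, 2 lower and 3 higher, with sums of 562 to 587, 725 to 895, 666 to 752 and 526 to 580 CPM. Smooth muscle markers (3 of 4 tested) gave 2 higher, 2 lower and 2 higher, with sums of 78.5 to 89.3, 120 to 159, 90.9 to 100.01 and 57.4 to 73.4 CPM. The 5 erythroid markers, of globin genes and Alas2, summed to 2029 to 2488, 2637 to 5498, 2027 to 18785 and 1416 to 2189 CPM. Their calls numbered 0 in CD VEH and 0 in WT JZL184, whereas 5 were lower for CD JZL184 against CD VEH, and the 5 fell to 0 without mouse A of CD VEH or mouse A or E of CD JZL184 and to 1 without CD JZL184 mouse C. In CD VEH the 0 rose to 4 without CD VEH mouse C and to 5 without mouse E, and in WT JZL184 to 3 without CD VEH mouse A. Ventricular cardiomyocyte markers (8 tested) had 2 lower in CD VEH, 3 higher and 1 lower in CD JZL184 against CD VEH, and 3 lower in WT JZL184. Without WT VEH mouse C the calls in CD VEH were 2 endothelial, 0 macrophage, 0 fibroblast, 0 smooth muscle and 0 ventricular, and without mouse D 4, 0, 0, 0 and 0. In WT JZL184 they were 5, 0, 2, 2 and 0 without mouse C and 5, 1, 2, 2 and 0 without mouse D. In CD JZL184 against CD VEH, leaving out 1 mouse gave 3 to 4 endothelial, 1 to 5 macrophage, 2 fibroblast, 1 to 3 smooth muscle and 1 to 5 ventricular calls. The lowest macrophage count came without CD JZL184 mouse A, the lowest smooth muscle count without CD JZL184 mouse E or CD VEH mouse A or C, and the lowest ventricular count without CD VEH mouse E. In CD VEH, macrophage calls were 1 without CD VEH mouse A and 0 without mouse E, and smooth muscle calls 0 without mouse A or C. With the length offset, calls in the 3 comparisons were 5, 5 and 5 for endothelial and 3, 4 and 5 for macrophage markers. They were 2, 3 and 3 for fibroblast and 1, 2 and 2 for smooth muscle markers, all in the directions given above. Erythroid markers then had 0, 1 and 0. No marker of these 6 lists was at 0 in any mouse. The part of cell makeup in the levels of the 6 mRNAs was not tested.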

How the data were processed

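RNA from hearts of 11 mice was sequenced. The deposited table gives unnormalized estimated counts, which the authors obtained for each gene from Salmon 0.7.2 (GRCm38 annotation, Ensembl release 85) through tximport 1.2.0. The columns name a group and a letter found in no sample label, so groups but not single samples were matched, and 0 columns had no group. Each mouse was 1 replicate. Of 22608 rows, 22238 matched GENCODE M21 and 21558 of them are protein-coding, with 0 rows for chrM ribosomal or transfer RNAs, so shares are of mostly protein-coding counts.

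Differences were tested on rounded counts by the quasi-likelihood test of edgeR 4.0.16 with TMM factors (limma 3.58.1, R 4.3.3), for 11319 genes whose average log2 CPM reached 1. All 4 groups entered 1 model without covariates, p-values were adjusted by Benjamini-Hochberg over all tested genes, and an adjusted p under 0.05 was called. The common biological coefficient of variation was 9.13%. Shares were tested by exact two-sided permutation within strata, adjusted over 12 tests for genotype and JZL184 and apart for the interaction. A single comparison of 3 with 3 or 3 with 2 mice cannot give an exact p under 0.1. Sequences came from GENCODE M21 transcripts, and blastn 2.17.0 found the nuclear copies.

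The genes, gene lists and most tests were chosen with earlier results of these data known. Named nuclear genes were, in each list and in 3 comparisons, the called genes with the highest and lowest log2 fold-change, plus Tfam, Polrmt, Lrpprc, Slirp and Taco1, and, by correlation with the 6 mRNAs (log2 CPM, prior count 2), the 5 most alike and 3 most opposite. Not every such gene is described. Alternatives were DESeq2 1.42.0, RLE, upper-quartile and nuclear-gene scaling, other filters, only the compared groups, and leaving out each mouse. Scaling to the 13 chrM mRNAs, a block by the letter in the column names, the offset for the longest annotated transcript (loess, span 0.5), and the permutation test of the interaction were added after seeing the data. The steps were tested on simulated data, in which the share of false calls was above the threshold for both tools. The binomial intervals of shares cover counting error only, and the intervals of fold-changes also the spread between mice.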

Additional observations from a re-analysis of the deposited data

Results flagged for a closer look

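The JZL184 effect in CD mice differed from that in WT mice for 5 of the 6 mRNAs by the interaction term of edgeR's quasi-likelihood test: -0.94 for mt-Co3, -0.81 for mt-Atp6, -0.73 for mt-Co2, -0.57 for mt-Cytb and -0.48 for mt-Co1 on the log2 scale, with 51.5% of all genes called for the same term. With the offset for transcript length 0 of these passed, and scaled to the 13 chrM mRNAs mt-Co3 and mt-Atp6 did while mt-Co1 changed sign. Their summed share of all counts differed in the same way by -9.66 percentage points (exact permutation test, p = 0.005). Among the counts of the 6 mRNAs, the share differed by 5.05 percentage points for mt-Co1, -3.49 for mt-Co3, -1.12 for mt-Atp6, -0.997 for mt-Co2 and 0.423 for mt-Cytb (exact permutation tests, adjusted p = 0.015 for the first 4 and 0.03 for mt-Cytb). In each case JZL184 went with opposite directions in the 2 genotypes. The shares among the 6 have a fixed sum, so their 5 differences are not independent of each other.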

How the results depend on the processing

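With 2 to 3 mice per group, leaving out 1 mouse moved the number of mRNAs called between 0 and 2 in CD VEH against WT VEH, between 3 and 5 for CD JZL184 against CD VEH, and between 0 and 4 in WT JZL184 against WT VEH, while CD JZL184 against WT JZL184 and the interaction stayed at 5 and CD JZL184 against WT VEH at 0. Where 1 WT VEH mouse was left, it was assumed to vary like the other groups. Whether a letter in the column names marks a shared litter, day or batch is not stated in the sources used here. Of 8 pairs of mice with the same letter in different groups, 1 had deviations from the group means that correlated above 0.1 (range -0.25 to 0.32), so the letters were not taken to pair the mice. With a replicate block by letter, added after seeing the data, the mRNAs called numbered 0, 6, 0, 3, 0 and 5 in the order of comparisons given next.

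The called mRNAs numbered 2, 5, 4, 5, 0 and 5 in the order of CD VEH against WT VEH, CD JZL184 against CD VEH, WT JZL184 against WT VEH, CD JZL184 against WT JZL184, CD JZL184 against WT VEH and the interaction. DESeq2 and upper-quartile scaling gave 2, 5, 5, 5, 0 and 5, and RLE and nuclear scaling the same counts as TMM. With no filter on low counts, or with at least 10 counts in every mouse, they were 0, 3, 1, 4, 0 and 4. With the model fitted to the compared groups alone, WT JZL184 against WT VEH gave 1. Scaled to the 13 chrM mRNAs, they were 0, 2, 0, 2, 0 and 2, and with the offset for transcript length 0, 0, 0, 1, 0 and 0. The causes were not tested.

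Scaling to the 13 chrM mRNAs reversed mt-Co1 in all 6 results, to -0.0113, 0.0746, -0.0172, 0.0805, 0.0633 and 0.0918 in that order, mt-Cytb to 0.0192 for CD JZL184 against CD VEH, 0.00959 against WT JZL184 and 0.035 against WT VEH, and mt-Atp8 to 0.147 in the interaction. The length offset reversed mt-Co1 (-0.00917), mt-Co2 (-0.111), mt-Atp6 (-0.00493) and mt-Cytb (-0.0372) for CD VEH against WT VEH, and mt-Atp8 to 0.0581 for CD JZL184 against CD VEH, 0.15 against WT JZL184 and 0.694 in the interaction.

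Leaving out 1 mouse also took values that had not passed across 0. They ranged from -0.266 to 0.188 (log2) for mt-Atp8 with CD VEH against WT VEH and from -0.359 to 0.0928 with WT JZL184 against WT VEH. In percentage points they ranged from -0.344 to 0.302 for the summed share with JZL184 and, for shares among the 6, from -0.162 to 0.0329 for mt-Co2 with JZL184, from -0.523 to 0.0106 and from -0.459 to 0.0745 for mt-Co3 with JZL184 and with genotype, and with genotype from -0.0412 to 0.0977 for mt-Atp6 and from -0.0281 to 0.0565 for mt-Cytb. The number of interaction tests passed was 3 to 5. On a log2 scale the difference in the summed share of the 6 members, JZL184, was -0.00468. As shares of the 13 chrM mRNAs, mt-Co2 with JZL184 was 0.0232 and the mt-Cytb interaction -0.037 percentage points, and 3 rather than 5 interaction tests passed. Adding counts of nuclear copies, or leaving out chrM ribosomal and transfer RNAs, was not run.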
